A study of Mus musculus with 2 samples.

Results

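The proteasome genes were taken as every row whose symbol begins Psma, Psmb, Psmc, Psmd, Psme, Psmf or Psmg followed by a digit. This rule uses the symbol alone and found 48 of the 13373 genes. They were followed through single cells of mouse intestinal organoids mutant for Apc, a tumour suppressor that restrains Wnt signalling. One library came from organoids treated with DBZ, a gamma-secretase inhibitor that blocks the release of active Notch, and the other from organoids treated with its vehicle, DMSO. The labels give strain C57Bl and an age of 3 to 4 months for both, and 1 protocol text shared by both lists 300 nM 4-OH-tam and 10 uM DBZ, so the titles were followed for the treatment. The Apc allele and the number of animals or cultures are not stated in the labels.

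The proteasome degrades proteins that carry ubiquitin chains. Its barrel-shaped 20S core holds the proteolytic sites between outer alpha rings and inner beta rings. The 19S cap, made of a base with a ring of ATPases and a lid, binds ubiquitin chains, removes them and feeds the unfolded protein into the core. Other caps (PA28, PA200) open the core without ATP, and exchange of the catalytic subunits makes the immunoproteasome, which serves peptide supply to MHC class I. The intestinal epithelium renews itself quickly, and dividing cells rely on the proteasome to destroy cyclins and other cell cycle regulators.

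The DBZ library held 1241 cells with a median of 10901 UMIs (5187 to 59745) and the DMSO library 968 cells with a median of 11183 (5241 to 56915). A level is the mean over cells of the UMIs of a gene per 10000 UMIs of the cell, and a change is the log2 ratio of DBZ over DMSO levels after adding 0.05 to each. With 1 library per group there was no replicate and no test. Brackets give 95% intervals of the ratio of pooled UMIs, in which deep cells weigh more, so that a bracket need not hold the change it follows. They cover counting error only. A change of at least 0.32 in size on the log2 scale is called past the threshold. Epcam, an epithelial surface marker, was found in 98.9% of the cells with DBZ and 99.8% of those with DMSO, no fibroblast marker of 5 was among the genes analysed, and the 1 immune marker of 8 that was reached 0.0939 UMIs per 10000 in DBZ cells and 0.132 in DMSO cells. Apc itself had 0.560 in DBZ cells and 0.363 in DMSO cells, which checks no label since the allele is not stated. No cells were removed as doublets, and 3 cell barcodes occurred in both libraries. The mix of cell states differed: the Paneth markers summed to 200.2 UMIs per 10000 in DBZ cells and 48.7 in DMSO cells, and all 12 mitosis genes were lower in the DBZ library past the threshold (-0.92 for Ccnb1 to -0.37 for Top2a). Immediate early genes, whose transcription is quickly switched on by stress or growth factors, summed to 24.4 in DBZ cells and 55.2 in DMSO cells, and hypoxia and glycolysis genes to 65.1 and 96.2. The part of these shifts in the changes over all cells was not tested, and values within clusters are given further on.

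The whole set stood at nearly the same level in both libraries. Together the 48 genes took 64.2 UMIs per 10000 in DBZ cells (0.642% of all UMIs) and 63.5 in DMSO cells (0.635%). This difference of 0.02 on the log2 scale has no stable direction: pooled UMIs gave -0.03 (-0.04 to -0.01), and leaving mitochondrial and ribosomal protein genes out of the total gave -0.10. Of the 48 genes, 46 were seen in at least 10% of cells of a library. Their median change was 0.02, with an interquartile range of -0.09 to 0.12. The 8797 genes of the table that passed the same filter had a median of 0.11, with an interquartile range of -0.12 to 0.33. Of the 46 proteasome genes 1 was higher in DBZ cells past the threshold, against 26.0% of all genes, and 0 were lower, against 12.0% of all genes. Members are better seen than most genes, but among the 2515 genes found in at least 50% of the cells of a library the shares past the threshold were still 21.1% higher and 14.5% lower, with 1 of 35 proteasome genes.

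**Figure D1:**
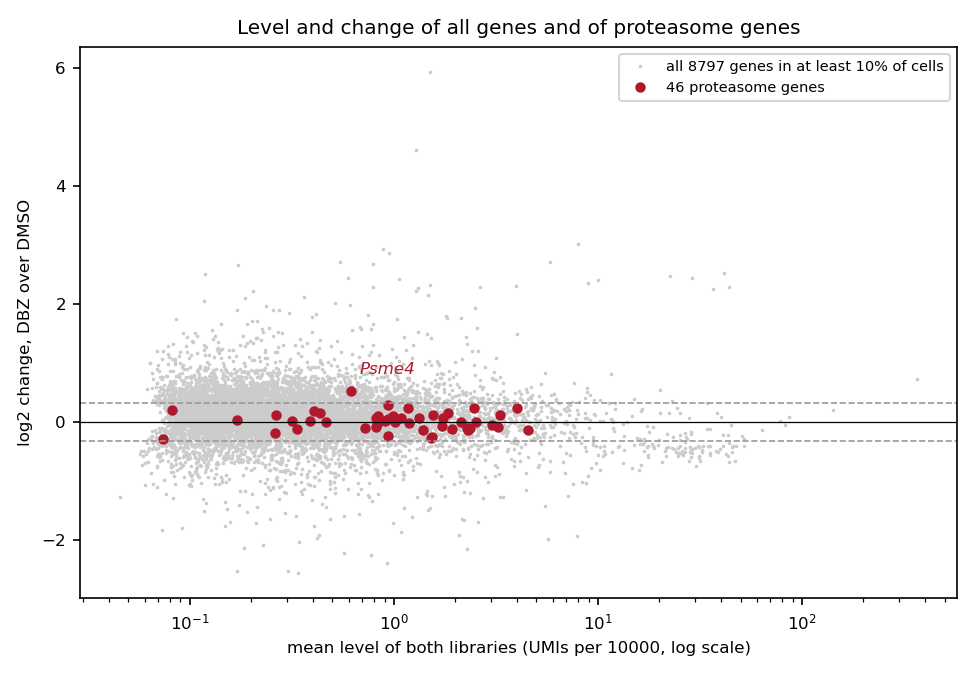
Mean level of both libraries in UMIs per 10000 (log axis) against the log2 change of DBZ over DMSO, for all 8797 genes seen in at least 10% of cells (grey) and the 46 proteasome genes among them (red). Dashed lines mark the threshold of 0.32; Psme4 alone among the proteasome genes lies outside them.

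Centred on the median of all genes, a shift of 0.11, the balance turned: 13 members lay above that median and 33 below, and 5 were past the threshold, Psme4 on the high side and Psmd7, Psmc6, Psmd12 and Psmc3ip on the low side. These are 10.9% of the 46 members, against 34.7% of all genes past the threshold in either direction on the same scale. Psmc3ip passed the filter in the DMSO library alone, with 11.7% of cells against 7.17% in the DBZ library. Nothing is therefore read from its lower direction. Pooled intervals lay above 0 for 11 of the 48 members, below 0 for 15 and held 0 for 22. Such shares are not given for all genes, so these counts have no background beside them.

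The alpha subunits, Psma1 to Psma7, form the outer rings of the core and its gate. They summed to 18.9 UMIs per 10000 in DBZ cells and 18.5 in DMSO cells, with 3 of 7 higher and 4 lower in the DBZ library and none past the threshold. Psma7, which led the ring, had a level of 4.34 in DBZ cells and 3.68 in DMSO cells, was seen in 97.7% and 96.2% of cells, and differed by 0.24 (0.10 to 0.20). At the other end Psma1 had 2.20 in DBZ cells and 2.40 in DMSO cells, was seen in 89.3% and 92.2% of cells, and differed by -0.12 (-0.23 to -0.09). The remaining alpha genes lay between these values.

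Among the non-catalytic beta subunits, Psmb1 to Psmb4, which build the inner rings, the sum was 11.5 UMIs per 10000 in DBZ cells and 11.2 in DMSO cells. Psmb3 had a level of 2.70 in DBZ cells and 2.27 in DMSO cells, was seen in 93.6% and 91.1% of cells, and differed by 0.25 (0.10 to 0.24). Psmb1 differed in the other direction, with 4.33 in DBZ cells and 4.73 in DMSO cells, in 97.6% and 98.6% of cells, a difference of -0.13 (-0.20 to -0.10). Neither was past the threshold. The catalytic beta subunits Psmb5, Psmb6 and Psmb7 carry the chymotrypsin-like, caspase-like and trypsin-like sites. They summed to 6.99 in DBZ cells and 7.21 in DMSO cells. Psmb5 had 2.13 in DBZ cells and 2.12 in DMSO cells, in 88.5% and 90.5% of cells, a difference of 0.01 (-0.09 to 0.06). Psmb6 had 3.17 in DBZ cells and 3.34 in DMSO cells, in 94.8% and 96.1% of cells, a difference of -0.07 (-0.17 to -0.06).

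The ATPases of the 19S base, Psmc1 to Psmc6, unfold substrates. As a group they summed to 6.75 UMIs per 10000 in DBZ cells and 6.63 in DMSO cells, but their ends were further apart than those of the core. Psmc1 had a level of 1.03 in DBZ cells and 0.834 in DMSO cells, in 68.5% and 61.2% of cells, a difference of 0.29 (0.12 to 0.35). Psmc6 had 1.40 in DBZ cells and 1.67 in DMSO cells, in 77.2% and 83.4% of cells, a difference of -0.25 (-0.36 to -0.18). The remaining ATPases lay between -0.03 (Psmc2) and 0.10 (Psmc4). The base proteins without ATPase activity differed little: Psmd4, a ubiquitin receptor, had 1.63 in DBZ cells and 1.49 in DMSO cells, in 82.0% and 80.3% of cells, a difference of 0.13 (0.01 to 0.18), and Psmd2, a scaffold, had 1.179 and 1.182, in 71.7% and 72.1% of cells, a difference of -0.003 (-0.12 to 0.07).

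The lid was the role group with the lowest change. Its 8 genes summed to 9.16 UMIs per 10000 in DBZ cells and 9.81 in DMSO cells, -0.10 on the log2 scale (-0.16 to -0.09), with 5 of 8 lower and none past the threshold. Psmd7, the structural partner of the deubiquitinase, had a level of 1.37 in DBZ cells and 1.66 in DMSO cells, in 74.5% and 81.1% of cells, a difference of -0.27 (-0.36 to -0.19). Psmd14, the deubiquitinase itself, had 0.869 in DBZ cells and 0.798 in DMSO cells, in 62.6% and 59.1% of cells, a difference of 0.12 (-0.07 to 0.16). The proteins of these genes form 1 heterodimer, and their transcripts thus lay at opposite ends of the lid.

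Core and cap as wholes kept their proportion. The 14 constitutive core genes summed to 37.4 UMIs per 10000 in DBZ cells and 36.9 in DMSO cells, and the 17 genes of the 19S base and lid to 19.69 in DBZ cells and 20.02 in DMSO cells. Core UMIs were 1.88 times cap UMIs in DBZ cells and 1.85 times in DMSO cells, a log2 difference of 0.02 (0.005 to 0.04). UMI levels are not set per transcript length, so these ratios are no measure of the stoichiometry of the particle.

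The activators held the member with the highest change. Psme4 encodes PA200, a large single-chain cap that opens the core and is known for roles with acetylated histones and in DNA repair. It had a level of 0.735 UMIs per 10000 in DBZ cells and 0.494 in DMSO cells, from 1216 and 641 UMIs, a difference of 0.53 (0.48 to 0.76). The share of cells with a UMI was 56.0% in the DBZ library (53.2 to 58.8, exact binomial interval), against 44.7% in the DMSO library (41.6 to 47.9). Thinned to 5000 UMIs per cell, the shares were 30.4% and 22.4%. Psme2, the beta subunit of PA28, had 1.28 in DBZ cells and 1.07 in DMSO cells, in 71.4% and 69.9% of cells, a difference of 0.25 (0.18 to 0.38). Its partner Psme1, the alpha subunit of the same ring, had 1.02 in DBZ cells and 1.01 in DMSO cells, in 63.8% and 67.6% of cells, a difference of 0.01 (-0.10 to 0.12). Psme3, the nuclear PA28 gamma, had 0.696 in DBZ cells and 0.750 in DMSO cells, in 54.3% and 57.6% of cells, a difference of -0.10 (-0.23 to 0.01). Psmf1, the inhibitor PI31, had 0.277 in DBZ cells and 0.251 in DMSO cells, in 28.9% and 26.9% of cells, a difference of 0.12 (-0.09 to 0.33).

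**Figure D2:**
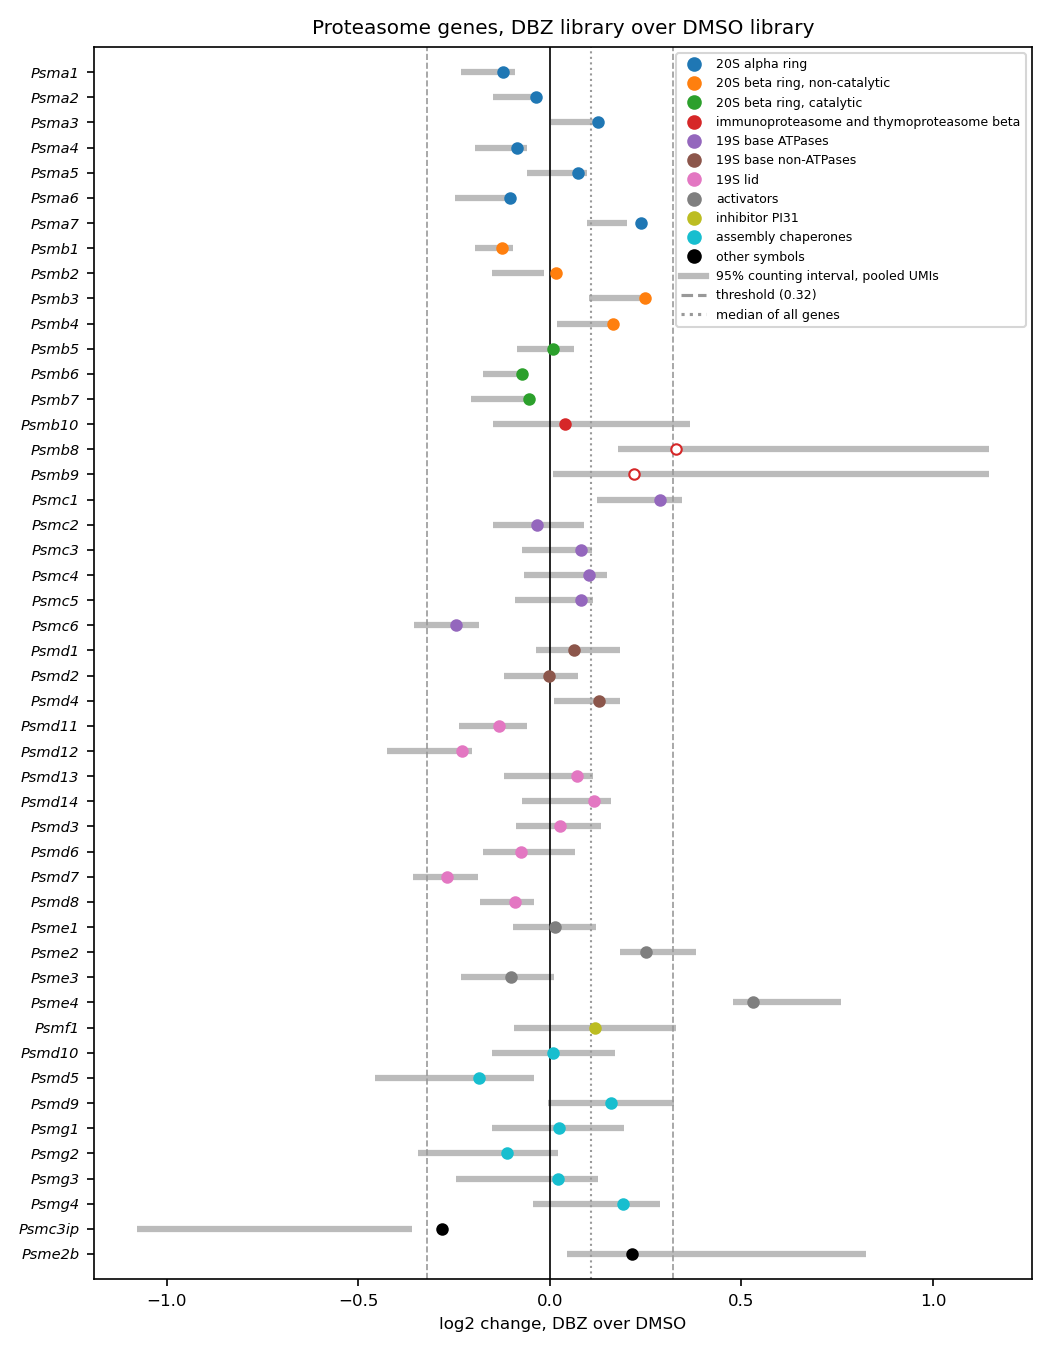
Log2 change of DBZ over DMSO for each of the 48 proteasome genes, grouped by role (points; open points for the 2 genes below the filter), with the 95% counting interval of pooled UMIs (grey bars), the threshold of 0.32 (dashed) and the median of all genes (dotted, 0.11). A point can lie outside its bar because cells are weighted equally for the point and by depth for the bar. Psme4 at 0.53 stands apart on the right.

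The immunoproteasome subunits, which replace the catalytic ones in cells exposed to interferon, were low. Psmb10 had a level of 0.174 in DBZ cells and 0.168 in DMSO cells, in 18.0% and 18.6% of cells, a difference of 0.04 (-0.15 to 0.36). Psmb8 had 0.0683 in DBZ cells and 0.0441 in DMSO cells, in 7.09% and 5.06% of cells from 109 and 56 UMIs, a difference of 0.33 (0.18 to 1.15). Psmb9 had 0.0466 in DBZ cells and 0.0330 in DMSO cells, in 5.72% and 4.13% of cells from 77 and 42 UMIs, a difference of 0.22 (0.01 to 1.15). Psmb8 and Psmb9 fell under the filter of 10% of cells and are not among the 46 counted above. No cell type here should lack the proteasome, so no background share from free RNA could be set beside these shares.

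Assembly chaperones build the rings and stay out of the finished particle. Psmg1 to Psmg4 serve the core, and Psmd5, Psmd9 and Psmd10 the base. They summed to 2.64 UMIs per 10000 in DBZ cells and 2.58 in DMSO cells. Psmg4 had a level of 0.434 in DBZ cells and 0.374 in DMSO cells, in 41.0% and 38.4% of cells, a difference of 0.19 (-0.04 to 0.29). Psmd5 had 0.242 in DBZ cells and 0.282 in DMSO cells, in 25.1% and 29.4% of cells, a difference of -0.18 (-0.46 to -0.04).

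The symbol rule also took in a pair of genes that are not standard subunits. Psmc3ip, named for an interaction with Psmc3, encodes a partner of the recombinases in homologous recombination. It had a level of 0.0615 in DBZ cells and 0.0857 in DMSO cells, in 7.17% and 11.7% of cells, a difference of -0.28, while its pooled UMIs, 115 and 153, gave -0.72 (-1.08 to -0.36). Psme2b is a near copy of Psme2, so the split of reads between them is uncertain. It had 0.0918 in DBZ cells and 0.0722 in DMSO cells, in 11.3% and 8.99% of cells, a difference of 0.21 (0.04 to 0.82). Psmc3ip passed the filter in the DMSO library alone and Psme2b in the DBZ library alone, so nothing is read from their directions.

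The choice of total shifts every role group as it shifts all genes. With mitochondrial and ribosomal protein genes left out of the total the median of all genes was 0.002, against 0.11 with them. Alpha subunits, non-catalytic beta subunits, ATPases, the other base proteins and chaperones had changes between 0.03 and 0.07 with all genes in the total and between -0.09 and -0.04 on the other scale, so no direction is given for them. Activators had 0.17, and 0.04 on that scale, catalytic beta subunits -0.05 and -0.16, and the lid -0.10 and -0.21.

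Cells were then grouped into 12 clusters with the proteasome genes left out of the clustering. Clusters took a name only from marker genes: cluster 7 was mitosis-like, cluster 8 DNA replication-like, cluster 10 enteroendocrine-like and cluster 11 Paneth-like, and the others are called by number. The enteroendocrine-like cluster also held 192.1 UMIs per 10000 of the Paneth defensin Defa22, against 177.3 in the Paneth-like cluster. Both libraries had at least 20 cells in 5 clusters (2, 3, 5, 7 and 10), with 606 DBZ cells and 409 DMSO cells. Inside these the summed proteasome level differed in both directions. It was 60.8 UMIs per 10000 in DBZ cells and 67.6 in DMSO cells of cluster 2, and pooled UMIs gave a log2 ratio of -0.15 (-0.22 to -0.08). In cluster 3 it was 67.3 in DBZ cells and 61.7 in DMSO cells (pooled 0.09, 0.04 to 0.14), and in cluster 5 61.5 and 53.8 (pooled 0.21, 0.15 to 0.27). The mitosis-like cells had 68.8 with DBZ and 71.0 with DMSO (pooled -0.05, -0.08 to -0.02), and the enteroendocrine-like cells 63.5 and 63.8, with a pooled interval that held 0 (-0.04 to 0.08). The median change of all genes was 0.18 in cluster 5, 0.11 in the mitosis-like cells and between -0.03 and 0.001 in the other 3, and libraries were not replicated.

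The interval of the Psme4 change was clear of 0 in 1 of the 5 shared clusters, and whether the clusters differ in it was not tested. In the mitosis-like cells its level was 0.709 with DBZ and 0.442 with DMSO, a change of 0.63 (0.36 to 0.99). In cluster 2 it was 0.769 in DBZ cells and 0.670 in DMSO cells (0.19), and in cluster 3 0.623 and 0.553 (0.16). Cluster 5 had 0.499 in DBZ cells and 0.516 in DMSO cells (-0.04), and the enteroendocrine-like cells 0.611 and 0.622 (-0.02). The intervals of these 4 clusters held 0, and they rest on 18 to 66 UMIs in the DMSO library. With equal weight for each shared cluster Psme4 differed by 0.18, under the threshold. Its highest level, 0.954, was in cluster 6, which held 259 DBZ cells and 16 DMSO cells and was led by Nts, Ly6d and Aldh1a2. All DBZ states from 20 cells up lay between 0.499 and 0.954 and all DMSO states between 0.442 and 0.670.

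Other members had 1 direction in all shared clusters. Psma7, Psmb3 and Psmd14 were higher in DBZ cells in 5 of 5 shared clusters, and Psmc6 and Psmd7 were lower in 5 of 5. The share of all genes with 1 direction in all 5 clusters is not given, so these counts have no background beside them. For Psma7 the cluster changes ran from 0.12 to 0.28, for Psmb3 from 0.03 to 0.37 and for Psmd14 from 0.08 to 0.67. For Psmc6 they ran from -0.78 to -0.17 and for Psmd7 from -0.67 to -0.08. Set against the median change of all genes in the same cluster, Psma7 lay above it in 5 of 5 clusters, Psmb3 and Psmd14 in 4 of 5 (both lay below the 0.11 of cluster 7, at 0.03 and 0.10), and Psmc6 and Psmd7 in 0 of 5. These members were picked out of 48 after their values were seen, most of the single intervals hold 0, pooled UMIs of Psmd14 in mitosis-like cells gave -0.05 (-0.29 to 0.18), and all clusters come from the same pair of libraries. Equal cluster weight gave 0.21 for Psma7 and 0.20 for Psmb3, near their changes over all cells. It gave 0.30 for Psmd14 and -0.36 for Psmc6, further from 0 than the 0.12 and -0.25 over all cells, and -0.29 for Psmd7. Without mitochondrial and ribosomal protein genes in the total, Psmd14 had 0.006, Psma7 0.12, Psmb3 0.13, Psmc6 -0.36 and Psmd7 -0.37 over all cells, and pooled UMIs gave 0.04 for Psmd14.

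**Figure D3:**
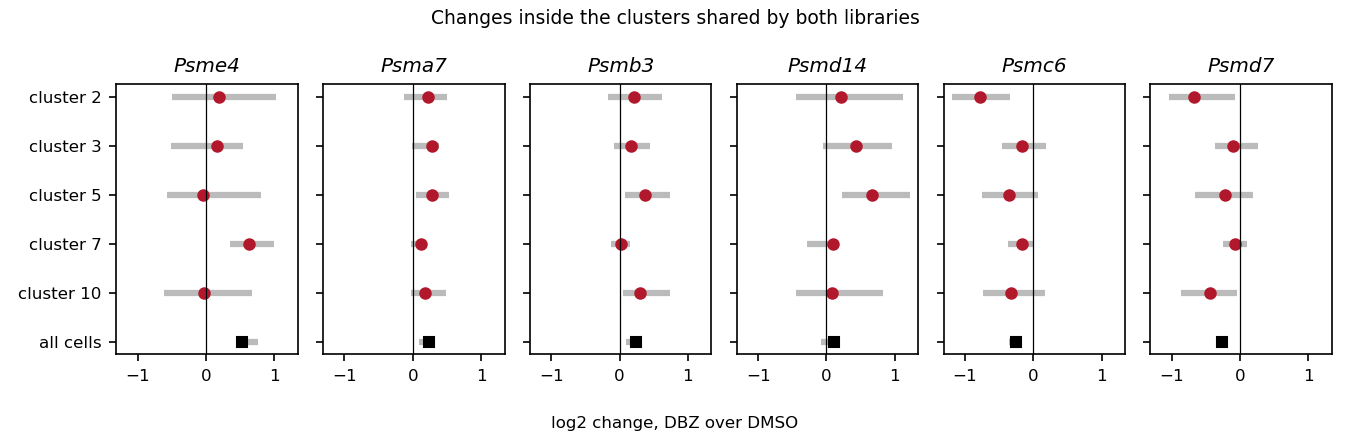
Log2 change of DBZ over DMSO of 6 proteasome genes inside each of the 5 clusters with at least 20 cells of both libraries (red points) and over all cells (black squares), with 95% counting intervals of pooled UMIs (grey bars). Psma7, Psmb3 and Psmd14 lie right of 0 and Psmc6 and Psmd7 left of 0 in every shared cluster, while Psme4 is clear of 0 in cluster 7.

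The promoters of Psme4 and of those members with a sequence in RefSeq are shown because their transcripts gave the changes above. Sequences run from 250 bases before to 50 bases after the annotated start, in build GRCm38.p6, and 41 of the 48 genes matched an entry (not Psmb1, Psmb2, Psmb7, Psmc3, Psmd3, Psmd7 and Psmg2). Capitals mark matches on either strand to the core of the antioxidant response element, TGACNNNGC, the element known in mammals for proteasome induction through NRF1, and to the CCAAT box. Psme4 lies at chr11:30771525-30771824, plus strand, Psma7 at chr2:180042415-180042714, minus strand, Psmb3 at chr11:97703184-97703483, plus strand, Psmd14 at chr2:61711444-61711743, plus strand, and Psmc6 at chr14:45329574-45329873, plus strand.
Psme4: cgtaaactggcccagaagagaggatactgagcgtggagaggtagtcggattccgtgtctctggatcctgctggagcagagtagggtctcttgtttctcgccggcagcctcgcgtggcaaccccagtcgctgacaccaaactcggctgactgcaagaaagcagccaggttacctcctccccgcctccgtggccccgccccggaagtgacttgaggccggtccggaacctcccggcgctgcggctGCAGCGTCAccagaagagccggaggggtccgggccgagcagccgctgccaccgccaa
Psma7: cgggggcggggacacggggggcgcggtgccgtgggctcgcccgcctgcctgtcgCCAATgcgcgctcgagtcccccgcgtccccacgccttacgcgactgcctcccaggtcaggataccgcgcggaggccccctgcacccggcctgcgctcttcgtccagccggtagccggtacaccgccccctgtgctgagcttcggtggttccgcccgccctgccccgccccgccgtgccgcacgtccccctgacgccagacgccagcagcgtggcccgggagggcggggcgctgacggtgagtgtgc
Psmb3: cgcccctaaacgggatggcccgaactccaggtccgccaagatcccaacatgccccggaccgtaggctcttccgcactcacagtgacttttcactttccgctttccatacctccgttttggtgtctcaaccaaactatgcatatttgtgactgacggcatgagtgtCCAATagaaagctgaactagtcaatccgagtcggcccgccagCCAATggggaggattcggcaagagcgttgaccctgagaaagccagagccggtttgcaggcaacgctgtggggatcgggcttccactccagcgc
Psmd14: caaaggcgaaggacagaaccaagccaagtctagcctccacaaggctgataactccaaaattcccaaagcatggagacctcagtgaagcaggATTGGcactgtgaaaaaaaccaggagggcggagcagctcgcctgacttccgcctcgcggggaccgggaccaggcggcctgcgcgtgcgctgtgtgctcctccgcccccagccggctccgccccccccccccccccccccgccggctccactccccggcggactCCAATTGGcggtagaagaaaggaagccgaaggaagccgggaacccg
Psmc6: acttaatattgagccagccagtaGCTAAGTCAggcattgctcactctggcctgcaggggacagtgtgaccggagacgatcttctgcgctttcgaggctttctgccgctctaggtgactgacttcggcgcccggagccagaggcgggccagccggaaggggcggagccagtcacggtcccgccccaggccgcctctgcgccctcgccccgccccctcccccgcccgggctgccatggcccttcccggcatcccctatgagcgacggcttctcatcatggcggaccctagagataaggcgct
Psme4 and Psmc6, which differed in opposite directions, each held the TGACNNNGC core, and Psma7, Psmb3 and Psmd14 held CCAAT. The TGACNNNGC core was in 6 of the 41 matched proteasome genes (14.6%: Psmb5, Psmb6, Psmc6, Psmd12, Psmd9 and Psme4), and in 14.0% of the 27025 genes with a promoter sequence. CCAAT was in 14 of 41 (34.1%) and in 41.1% of all. The core of the interferon-stimulated response element, a pair of GAAA blocks with 2 bases between them, was in 5 of 41 (12.2%: Psmb3, Psmd4, Psmd9, Psme1 and Psmg4) and in 3.99% of all. The 3 motifs were searched on both strands, and a match describes letters only.

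Across cell states the summed level ranged more widely than between libraries. In the DBZ library the 9 states ran from 45.2 UMIs per 10000 in Paneth-like cells to 72.9 in DNA replication-like cells. In the DMSO library the 8 states ran from 53.6 in cluster 4 to 71.0 in mitosis-like cells. The SD between cells of a state was 11.0 to 19.8. Cells are not replicates, so the order of states was not tested. Against the other cells of its library, pooled UMIs gave -0.58 (-0.62 to -0.54) for Paneth-like, 0.20 (0.17 to 0.23) for DNA replication-like and 0.16 (0.13 to 0.18) for mitosis-like DBZ cells. In the DMSO library they gave 0.22 (0.20 to 0.24) for mitosis-like cells, -0.30 (-0.33 to -0.26) for cluster 4 and -0.29 (-0.33 to -0.26) for cluster 5. The intervals of the last pair overlap, and so do those of the DNA replication-like and mitosis-like DBZ cells.

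**Figure D4:**
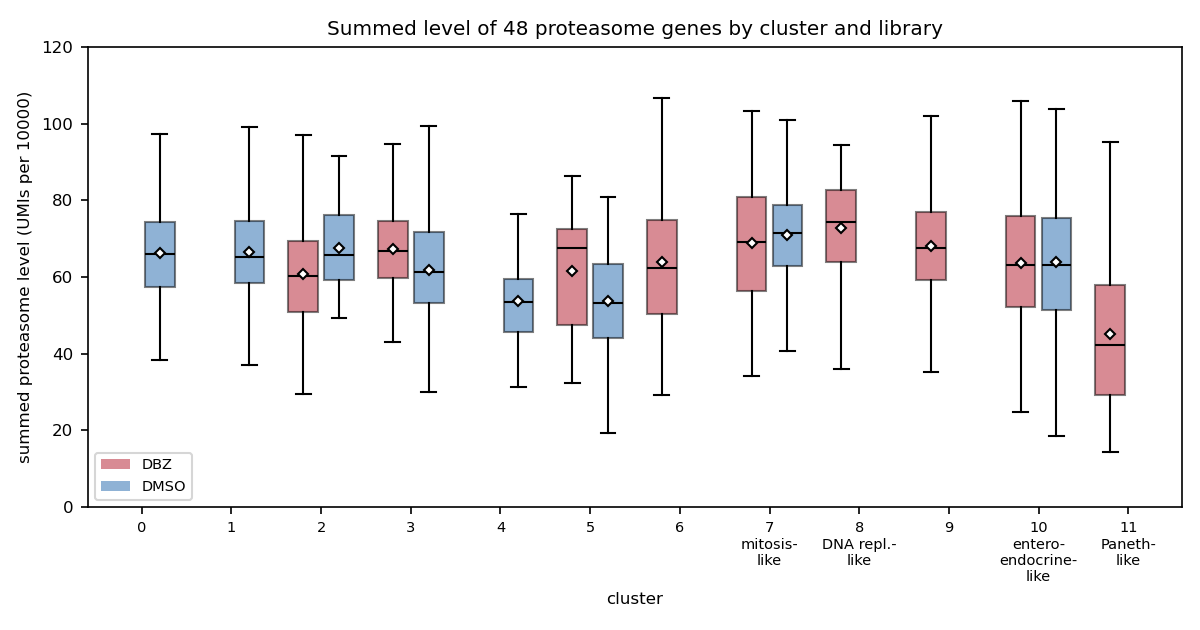
Summed level of the 48 proteasome genes per cell, in UMIs per 10000, by cluster, for DBZ cells (red, left) and DMSO cells (blue, right) where a library has at least 20 cells. Boxes span the interquartile range of cells, lines are medians, diamonds means, and whiskers reach the most extreme cell within 1.5 box lengths; the Paneth-like box at the right, with a mean of 45.2, is the lowest.

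The 77 Paneth-like DBZ cells had 45.2 UMIs per 10000, and the other DBZ cells 65.5, a difference of -0.54. Of 45 members, 39 were lower past the threshold, and so were 64.7% of all genes, while 0 were higher, against 4.87% of all genes. The median change was -0.49 over these members and -0.46 over all genes. The lowest was Psmd8, a lid subunit, with 1.23 in Paneth-like cells and 2.26 in the other DBZ cells, a change of -0.85. Psmb10, Psme2b, Psmd7, Psmg1, Psmg3 and Psmg4 stayed within the threshold. Genes with a Defa symbol took 18.4% of the UMIs of these cells, and any defensin genes under other symbols are not in this share. With Defa genes left out of the total the summed level was 53.8 in Paneth-like cells and 66.4 in the other DBZ cells.

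Mitosis-like cells stood at the upper end in both libraries. In the DBZ library 11 of 48 members were higher than in the other DBZ cells past the threshold, against 24.3% of all genes, and 1 was lower, against 23.5%. In the DMSO library 12 of 46 were higher, against 23.7% of all genes, and 0 lower, against 22.7%. In the DBZ library Psmb8, Psmb9 and Psmc3ip passed the filter only through the mitosis-like cells, so nothing is read from their direction there. Psmb8 and Psmc3ip are among the 11 higher members. Among genes seen in at least 10% of all DBZ cells 9 of 45 members were higher, against 20.4% of all genes, and 1 was lower, against 25.9%. Psme2b passed in the same way in the DMSO library. Among genes seen in at least 10% of all DMSO cells 12 of 45 members were higher, against 21.3% of all genes. There 0 were lower, against 24.9%. The counts of higher members lay near the share of all genes. In the DMSO library Psmc3ip, 1 of the 12 higher members under either filter, had 0.258 UMIs per 10000 in mitosis-like and 0.0513 in other cells (1.60). Of its 153 DMSO UMIs 98 lay in mitosis-like cells, and the rest are too few to reach 10% of the other cells. Its pass thus rests on the mitosis-like cells, and nothing is read from its direction there either. Psme3 had 1.07 in mitosis-like and 0.656 in other DBZ cells, and 0.952 in mitosis-like and 0.709 in other DMSO cells. The 1 lower member was the chaperone gene Psmd10, with 0.309 in mitosis-like and 0.481 in other DBZ cells.

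The low DMSO states were clusters 4 and 5. Against the other DMSO cells, members had a median change of -0.23 in cluster 4 and -0.34 in cluster 5. All genes had -0.12 in cluster 4 and -0.11 in cluster 5. Cluster 4, led by Pmp22, Gdf15 and Areg, had 18 of 45 members lower than the other DMSO cells past the threshold, against 27.3% of all genes, and 0 higher, against 9.72%. Cluster 5, led by Sprr1a, Reg3g and Hmox1, had 26 of 45 lower, against 32.2% of all genes, and 1 higher, against 17.7%. That 1 was Psmd8, with 3.01 UMIs per 10000 in cluster 5 and 2.27 in the other DMSO cells (0.39), while its lid neighbour Psmd6 had 0.498 in cluster 5 and 0.880 in the other DMSO cells (-0.76). In the 28 DBZ cells of cluster 5 Psmd8 was also at its highest level of any DBZ state, 3.63. Psmd8 and Psma7 had the highest ratios of variance between cells to counting variance among members, 1.51 and 1.54 in DBZ cells and 1.52 and 1.54 in DMSO cells. At the same relative spread this ratio is larger for genes with more UMIs, so it does not rank relative spread. Over all members, including those seen in few cells, this ratio had a median of 1.19 in DBZ cells and 1.11 in DMSO cells. Over all genes found in 50% of cells or more it was 1.29 and 1.26. The filters differ, so these medians are not like for like.

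**Figure D5:**
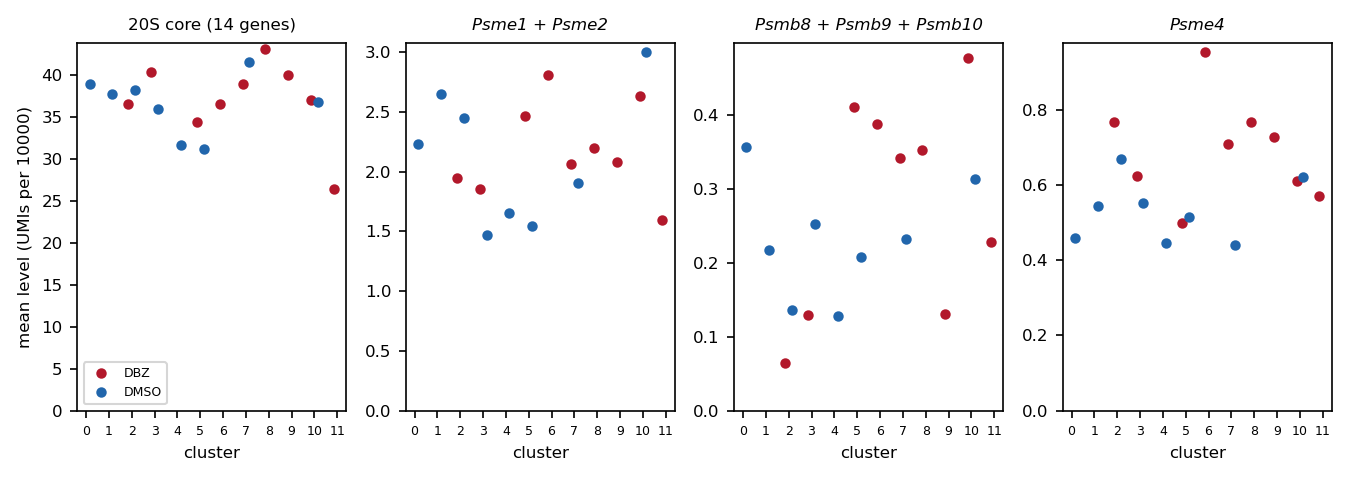
Mean level per cluster, in UMIs per 10000, of the 14 core genes, of Psme1 and Psme2 together, of the 3 immunoproteasome genes together and of Psme4, in DBZ cells (red) and DMSO cells (blue), for states with at least 20 cells. The core is lowest in the DBZ cells of cluster 11, at 26.4, and Psme4 is highest in the DBZ cells of cluster 6, at 0.954.

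The PA28 alpha and beta genes differed from the core in their highest states. Paneth-like cells were the lowest DBZ state for both, and clusters 3, 4 and 5 were the lowest DMSO states for both. Psme1 and Psme2 together were highest, among DBZ states, in cluster 6 with 2.81 UMIs per 10000 and, among DMSO states, in enteroendocrine-like cells with 3.01. They were lowest in Paneth-like cells with 1.60 in the DBZ library and in cluster 3 with 1.47 in the DMSO library. Next in the DMSO library were cluster 5 with 1.55 and cluster 4 with 1.65. The counting error of these sums is not given, so the order of these DMSO clusters is not read. The 3 immunoproteasome genes summed to 0.0642 in cluster 2 and 0.478 in enteroendocrine-like cells, the lowest and highest DBZ states, on 12 and 92 UMIs. Cluster 6 (0.388 on 131 UMIs) had Cd74, an MHC class II chaperone, among its 10 leading genes.

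From cell to cell the summed level varied more than counting alone gives. Its SD was 16.7 in DBZ cells and 15.3 in DMSO cells, against a counting SD of 7.71 and 7.51. The median cell had 70 proteasome UMIs from 30 of the 48 genes in the DBZ library and 69 from 31 genes in the DMSO library, and the fewest genes seen in a cell were 12 in either. After thinning each cell to 5000 UMIs, the sums of the core and of the cap correlated with Pearson's r of 0.39 over 1241 DBZ cells and 0.36 over 968 DMSO cells. Cells of a library share its preparation, and both sums share the total of the cell as denominator, so these values are descriptions. Without Paneth-like cells they were 0.34 in DBZ cells and 0.34 in DMSO cells.

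Genes that work with the proteasome but carry other symbols were set beside it. Of 18 such partners 12 were higher in DBZ cells and 6 lower, with 4 past the threshold on the high side, against 26.0% of all genes, and 1 on the low side, against 12.0%. For this and the other lists, the share of all genes higher by any amount is not given. The median of all genes was 0.11, so counts by direction alone do not set a list apart. The highest were Ddi2, the protease that activates NRF1, with 0.299 UMIs per 10000 in DBZ cells and 0.182 in DMSO cells (0.59), and Akirin2, which carries proteasomes into the nucleus, with 0.923 and 0.603 (0.57). The lowest was Uchl5, a deubiquitinase of the 19S cap, with 0.343 in DBZ cells and 0.473 in DMSO cells (-0.41). Pomp, the chaperone that completes the core, had 3.09 in DBZ cells and 2.96 in DMSO cells (0.06). Among 15 genes of ubiquitin and its activation 8 were higher and 7 lower, with 1 and 3 past the threshold, beside the same shares of all genes. Highest was Ube2r2, a conjugating enzyme, with 1.26 in DBZ cells and 0.975 in DMSO cells (0.36). Lowest was Ube2c, the conjugating enzyme of mitotic exit, with 0.804 in DBZ cells and 1.36 in DMSO cells (-0.72), beside the lower mitosis genes given above.

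The machinery that extracts proteins for the proteasome from the endoplasmic reticulum differed more. Of 16 p97 and ER-associated degradation genes that passed the filter, 15 were higher in DBZ cells and 7 past the threshold, against 26.0% of all genes, with a median of 0.28 against 0.11 for all genes. Highest was Vimp, a membrane anchor of p97, with 1.18 in DBZ cells and 0.667 in DMSO cells (0.78), and lowest Faf2 with 0.545 and 0.555 (-0.02). All 16 genes of ER folding and secretion were higher as well, 11 of them past the threshold, from 0.23 for Hsp90b1 to 0.84 for Sec61a1, beside goblet markers that summed to 21.1 UMIs per 10000 in DBZ cells and 4.01 in DMSO cells, enteroendocrine markers at 20.3 and 5.13, and the Paneth markers given above. Among 15 regulators and targets of NRF1 and NRF2, the transcription factors known to induce proteasome genes, 6 were higher and 9 lower. Past the threshold were 4 on either side, against 26.0% of all genes higher and 12.0% lower. Nfe2l1, which encodes NRF1, had 0.571 in DBZ cells and 0.383 in DMSO cells (0.52), and Ddi2, given above, was the highest of the list. Mafk, a small Maf partner, had 0.207 in DBZ cells and 0.515 in DMSO cells (-1.13), the lowest of those that passed the filter.

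Of 10 antigen presentation and interferon genes that passed the filter 5 were higher and 5 lower. Past the threshold were 4 and 3, against 26.0% of all genes higher and 12.0% lower. Tapbp, which loads peptides onto class I, had 0.639 in DBZ cells and 0.436 in DMSO cells (0.50), and H2-K1, a class I heavy chain, 2.71 and 2.07 (0.38). At the other end Cxcl10, an interferon-induced chemokine, had 0.0374 in DBZ cells and 0.333 in DMSO cells (-2.13). For comparison, Psmb8, Psmb9 and Psmb10 together had 0.289 in DBZ cells and 0.245 in DMSO cells, 0.24 on the log2 scale (0.08 to 0.49), and 0.05 without the Paneth-like and enteroendocrine-like clusters.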

How the data were processed

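Both libraries share 1 table, which the authors deposited as natural log values. Undoing the log, exp(value) - 1 added up to 10000 per cell, so each value is ln(1 + 10000 times the share of the gene). All 7553435 values above 0 were whole multiples of 1 step per cell (tolerance 0.01), which gave back the UMIs. Per the submitters' processing notes, Cell Ranger 2.1.1 and Seurat were used with build mm10; the annotation and the filters are not stated. Columns that begin GSI were read as DBZ and CTRL as DMSO, and 0 columns belonged to no sample. Per the labels, sequencing gave 113705 reads per DBZ cell and 115754 per DMSO cell on average, with 3000 cells aimed at.

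Levels, changes and the pseudocount of 0.05, which understates changes of low genes, are as given with the results, and the filter was at least 10% of cells in either library. Pooled ratios have exact conditional 95% intervals and shares exact Clopper-Pearson ones, for counting error only. Clustering used scanpy 1.11.5 and igraph 0.11.9 (2000 variable genes without the proteasome genes, 30 components, 15 neighbours, Leiden resolution 1, seed 0). A name needed 3 markers of 1 class, more than of any other, among the 10 genes of a cluster with the highest fold. Thinning used 5000 UMIs per cell. Cells were not called as doublets, and an alternative left out cells of over 30000 UMIs. The scripts were tested on simulated data.

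The members, lists and alternatives were chosen with earlier results of these data known. Named with full values are the highest and lowest change of each role group, all members past the threshold and all immunoproteasome and PA28 genes, and of the partner, ubiquitin, p97, NRF and antigen presentation lists the highest and lowest changes. Other lists are given by counts, sums and the change of 1 gene at either end. Psmb3, Psma7, Psmd14, Psmc6 and Psmd7 in shared clusters, the members named in cluster contrasts, Pomp, Akirin2, Nfe2l1 and H2-K1 were named after their values were seen. Promoters came from RefSeq (GRCm38.p6). A result that belongs to the ubiquitin list is not reported here.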

Additional observations from a re-analysis of the deposited data

How the results depend on the processing

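The summed change of 0.02 became -0.0268 with pooled UMIs, -0.101 without mitochondrial and ribosomal protein genes in the total and -0.0910 when centred on the median gene. It was 0.0475 without the secretory clusters, 0.0492 without secretory genes in the total and 0.0300 without cells of over 30000 UMIs. The median change of 0.02 was 0.00194, -0.0960 and -0.0890 under the first 3 of these, and 0.0513 and 0.0334 under the last 2. The count of 1 member past the threshold was 2 with pooled UMIs (Psmc3ip added, lower), 2 without secretory clusters (Psmc1 added), 2 with a pseudocount of 0.01, 2 with a filter of 1% of cells and 2 with no filter (Psmb8 added), and 0 with a pseudocount of 0.5. It was 5 (1 higher, 4 lower) on either of the 2 scales that shift all genes. Psmc3ip, 1 of these 4, passed the filter in the DMSO library alone. Equal cluster weights gave 1, but it was Psmc6 and not Psme4, at 0.18. The Paneth-like difference of -0.54 was -0.58 at Leiden resolution 0.5 and -0.25 without secretory genes in the total. The causes were not tested, except that the last setting removes those cells' most abundant genes. Of the single members' alternatives 35 stayed within their counting error and 13 moved, and of the role groups' 53 and 24. A reversal was looked for only in changes past the threshold, here that of Psme4 alone, which kept its direction. Smaller changes did turn their sign. The alpha subunits went from 0.04 to -0.08 without mitochondrial and ribosomal protein genes in the total. The alternatives without secretory genes in the total and without cells of over 30000 UMIs, the filter over the whole library in cluster contrasts, those of single members and the centring of role groups were chosen after seeing the data. No paired analysis was possible because there is 1 library per group, and for the same reason no replicate could be left out. Genes with few UMIs, such as Psmb8 and Psmb9, are limited by depth.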

Other observations

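Cytosolic heat shock genes, chaperones that pass misfolded proteins on to the proteasome, lay mostly below their DMSO level. Of 14 that passed the filter 12 were lower in DBZ cells and 2 higher, with 4 and 1 past the threshold, against 12.0% of all genes lower and 26.0% higher. Hspa8, the constitutive Hsp70, had 13.1 UMIs per 10000 in DBZ cells and 17.0 in DMSO cells (-0.38), and Dnajb1, a co-chaperone induced by heat shock, 0.344 in DBZ cells and 0.667 in DMSO cells (-0.86). Hsph1, a nucleotide exchange factor of Hsp70, had 0.519 in DBZ cells and 0.334 in DMSO cells (0.57). Hspa8 was named after its value was seen. Other lists were lower in DBZ cells by more members. Of the immediate early genes 13 of 13 were lower and 12 past the threshold, from -2.51 for Egr4 to -0.17 for Jun. Of 14 hypoxia and glycolysis genes 13 were lower and 11 past the threshold, from -1.58 for Adm, with Ndrg1 the 1 higher at 0.23. The part of these shifts in the heat shock values was not tested. All 12 DNA replication genes were lower past the threshold (-0.82 for Hells to -0.34 for Mcm2). Egr4, Arc, Adm, Ung and Rrm2 passed the filter in the DMSO library alone, so nothing is read from their direction. The same holds for Plk1 and Aurka among the mitosis genes given above. Of 16 ribosome biogenesis genes 12 were lower and 4 higher, with 2 past the threshold on either side (-0.52 for Dkc1 to 0.58 for Polr1a). Of 9 intestinal epithelium genes 7 were lower, 6 past the threshold (-0.81 for Krt8), and 2 higher, 1 past it (Cdh1, 0.34).

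Over cells thinned to 5000 UMIs, the summed proteasome level correlated with the summed heat shock level with a Pearson's r of 0.39 over 1241 DBZ cells and 0.42 over 968 DMSO cells. With the ubiquitin genes r was 0.39 in DBZ cells and 0.15 in DMSO cells. Cells share their library and both sums share a denominator, so no more than a description is meant, and the difference between libraries was not tested. In 5 groups of equal size from shallow to deep cells, the summed proteasome level was 65.9, 65.8, 65.3, 63.1 and 61.1 UMIs per 10000 in the DBZ library and 64.8, 60.8, 60.8, 64.6 and 66.3 in the DMSO library.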
